A study of Homo sapiens with 2 samples.

Results

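The genes described here build the kinetochore, the protein assembly that ties a chromosome to spindle microtubules, together with the centromeric chromatin under it and the checkpoint that watches over it. They were taken by symbol from a list of 47 genes, and all 47 were found, each on 1 row, among 18083 symbols with a single row in the table. All 47 are annotated as protein-coding. RNA came from asynchronous U2OS cells, an established human osteosarcoma line, after 18 h in 0.3 µM aphidicolin, an inhibitor of the replicative DNA polymerases. The treatment has 2 replicate libraries; separate cultures are not stated for them, and their spread may be a technical one. Untreated cells were not analysed here. Every value below is therefore a level in treated cells and no response to the drug. The study's title names DNA synthesis during mitosis, which is the phase in which kinetochores work.

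A kinetochore is assembled in layers. Nucleosomes that hold the histone H3 variant CENP-A mark the centromere, and a group of inner proteins, the constitutive centromere-associated network, sits on them. In mitosis the outer layer forms on this base and its NDC80 complex grips the microtubule ends. Kinetochores without attachment recruit MAD and BUB proteins, which hold back CDC20, the activator of the anaphase-promoting complex, until all chromosomes are attached. The chromosomal passenger complex, with the kinase Aurora B, destabilises faulty attachments. Transcripts of many of these genes are known to accumulate toward G2 and mitosis, so in a bulk sample the share of cells in those phases and the RNA per cell cannot be told apart.

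Levels are RPKM, reads scaled by the library total and by the exonic length in kilobases, which allows genes to be set side by side. The libraries held 13227805 reads in replicate 1 and 13020149 in replicate 2, as recovered from the RPKM. The members rested on between 52 reads, for MAD1L1 in replicate 2, and 6426 reads, for CENPF in replicate 2. Mesenchymal genes of a bone-derived line were high, with VIM at 249 ± 0.226 RPKM and SPARC at 279.9 ± 3.67 RPKM (mean ± SD, n = 2 here and below). Of 10 mesenchymal and osteoblast markers 6 reached 1 RPKM in both libraries. BGLAP was at 0.277 RPKM and COL1A2 at 0.0515 RPKM, and IBSP and SP7 were not listed. Of the other cell types, 3 of 5 epithelial genes (KRT18 highest, at 42.6 RPKM) and 3 of 4 neuronal genes (SNAP25 highest, at 5.73) reached 1 RPKM. None of the listed endothelial, hepatocyte or haematopoietic genes did, the highest being VWF at 0.462, APOA1 at 0.242 and PTPRC at 0.145 RPKM.

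The members covered a wide range, from 0.611 ± 0.0826 RPKM for MAD1L1 to 111 ± 1.44 RPKM for ZWINT. In both libraries 46 of 47 members reached 1 RPKM, and 40 reached 10 RPKM. Over all 17912 entries of the table the shares were 66.7% at 1 RPKM and 27.7% at 10 RPKM. Over the 15381 protein-coding entries they were 72.8% and 31.5%. The median member stood at 25.01 RPKM, with quartiles at 15.0 and 33.4, and the median of all entries was 3.53 RPKM. For protein-coding entries the median was 4.81 RPKM. Among all entries, 45 members lay above the median, the exceptions being CENPP and MAD1L1. The members together took 0.593% of the summed RPKM in replicate 1 and 0.595% in replicate 2. When the 47 genes were put in order, the libraries' values of neighbours overlapped for 22 of 46 adjacent pairs and were apart for 24.

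**Figure D1:**
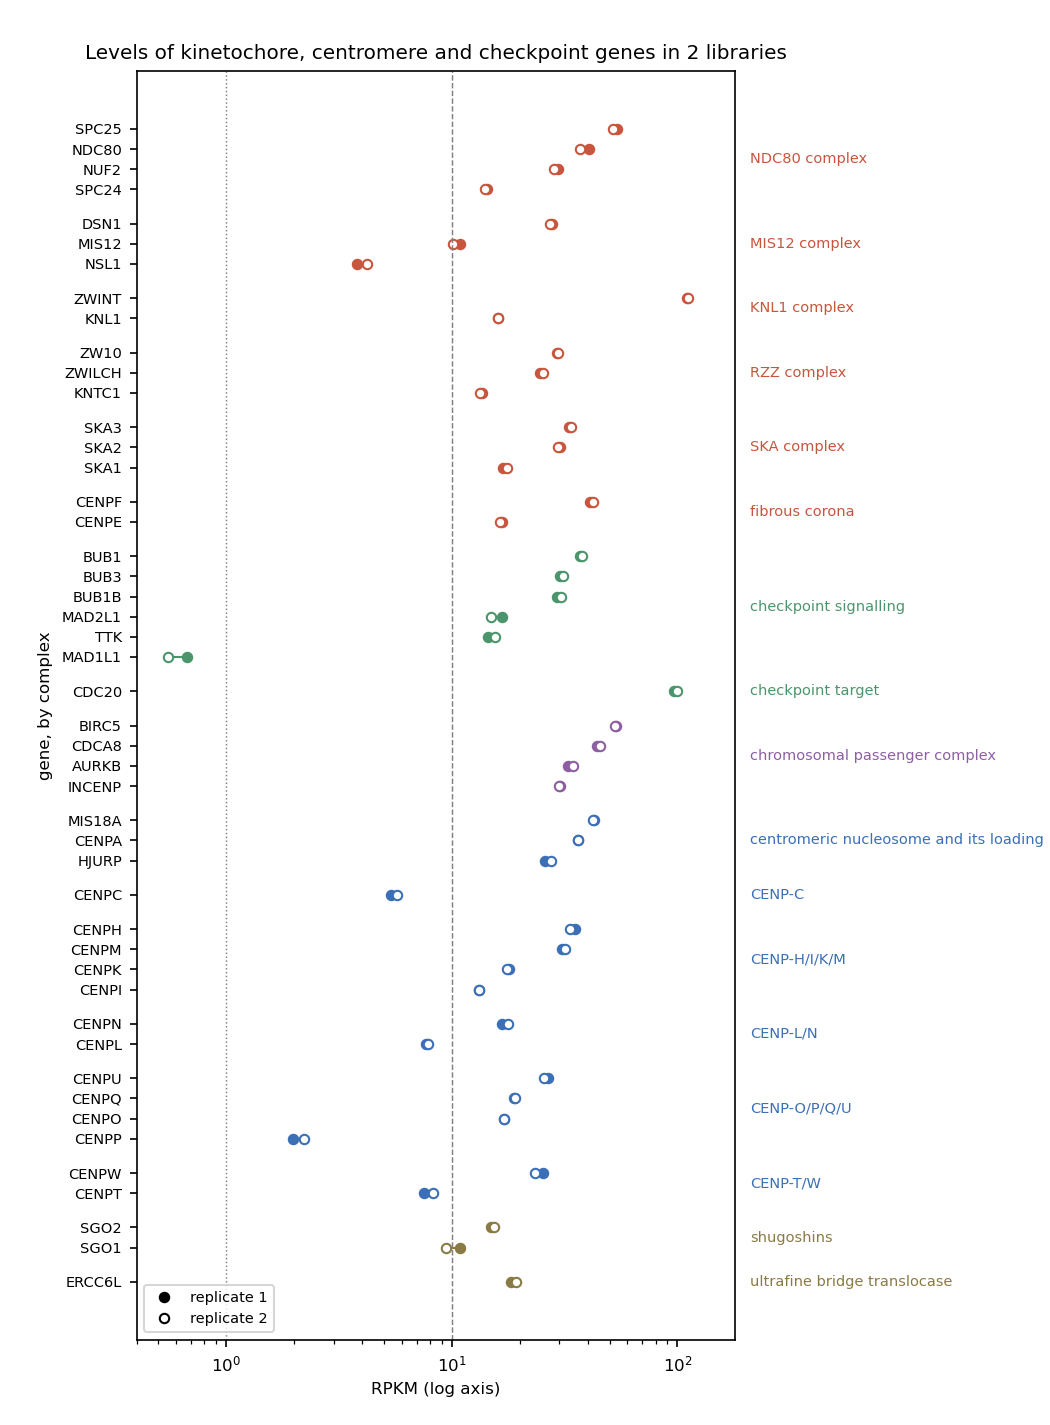
RPKM of each of the 47 members on a log axis, in replicate 1 (filled) and replicate 2 (open), grouped by complex and coloured by role. Dotted and dashed lines mark 1 and 10 RPKM. ZWINT and CDC20 lie to the right of all other genes, MAD1L1 alone lies under 1 RPKM, and the subunits of most complexes are spread out.

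Promoters of mitotic genes often carry the cell cycle homology region, read here as TTTGAA or TTTAAA, and CCAAT boxes, which NF-Y binds. To show how these letters lie beside high and low levels, the highest and the lowest member of the inner centromere, outer kinetochore, checkpoint and passenger complex with an entry in the RefSeq promoter table (GRCh38.p14) are printed, from 120 bases before the start of transcription to 20 after it, on the gene's own strand. Capitals mark all these letters on either strand, and neighbouring matches may overlap. The stretch of ZWINT is chr10:56361240-56361379 (-), that of NSL1 chr1:212791758-212791897 (-), that of CDC20 chr1:43358861-43359000 (+), that of MAD1L1 chr7:2232926-2233065 (-), that of CDCA8 chr1:37692396-37692535 (+), that of INCENP chr11:62123891-62124030 (+), that of CENPA chr2:26785936-26786075 (+) and that of CENPP chr9:92325348-92325487 (+).
ZWINT: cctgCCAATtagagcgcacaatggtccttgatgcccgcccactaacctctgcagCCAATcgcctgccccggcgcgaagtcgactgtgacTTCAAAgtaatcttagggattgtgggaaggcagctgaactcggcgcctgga
NSL1: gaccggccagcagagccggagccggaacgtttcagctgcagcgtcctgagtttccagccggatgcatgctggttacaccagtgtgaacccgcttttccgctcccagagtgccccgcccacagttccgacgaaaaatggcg
CDC20: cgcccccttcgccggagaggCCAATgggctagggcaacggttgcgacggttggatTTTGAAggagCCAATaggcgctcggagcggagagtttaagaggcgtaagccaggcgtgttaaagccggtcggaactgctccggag
MAD1L1: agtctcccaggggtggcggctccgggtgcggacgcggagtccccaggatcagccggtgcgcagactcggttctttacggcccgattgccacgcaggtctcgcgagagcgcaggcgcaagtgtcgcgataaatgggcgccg
CDCA8: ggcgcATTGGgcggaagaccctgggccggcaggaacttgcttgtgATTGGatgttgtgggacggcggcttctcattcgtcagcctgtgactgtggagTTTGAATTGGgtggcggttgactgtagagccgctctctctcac
INCENP: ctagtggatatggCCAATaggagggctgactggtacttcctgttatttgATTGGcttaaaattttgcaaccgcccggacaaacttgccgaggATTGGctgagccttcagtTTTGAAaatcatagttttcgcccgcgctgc
CENPA: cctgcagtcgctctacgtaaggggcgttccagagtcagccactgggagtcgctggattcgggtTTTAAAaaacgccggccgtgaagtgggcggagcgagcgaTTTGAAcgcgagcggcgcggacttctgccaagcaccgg
CENPP: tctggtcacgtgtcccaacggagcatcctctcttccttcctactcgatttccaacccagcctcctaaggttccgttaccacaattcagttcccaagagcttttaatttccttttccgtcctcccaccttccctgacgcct

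In these stretches ZWINT, CDC20, CDCA8 and INCENP held both kinds of letters, CENPA held TTTGAA and TTTAAA, and NSL1, MAD1L1 and CENPP held neither. The promoter table had entries for 38 members, some with several starts and so 44 windows in all, and a member was counted where any of its windows held the letters. CENPP was counted for CCAAT through another start than the printed one. BIRC5, MIS18A, CENPH, CENPM, BUB3, KNL1, TTK, KNTC1 and CENPL had no entry in the promoter table and were not searched. In windows from 250 bases before to 50 after the start, on both strands, TTTGAA or TTTAAA was found for 21 of 38 members (55.3%) and for 27.9% of all 27305 genes in the table. In the 250 bases before the start alone, the counts were 14 of 38 members (36.8%) and 25.5% of all genes. Counted by window of the full length, the shares were 52.3% of 44 member windows and 24.0% of all windows. CCAAT was found for 26 of 38 members (68.4%) and for 39.7% of all genes, or 68.2% of member windows and 34.6% of all windows. The E2F letters TTTCGCGC or TTTGGCGC were found for CENPU alone among the members (2.63%) and for 1.40% of all genes. A match of letters is a description and shows no bound factor.

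TTTGAA or TTTAAA began within 30 bases of the start, before or after it, in 12 of the 38 members with an entry. Among them were BUB1B and CDCA8 at base -23, CENPA at -18, INCENP at -10 and SPC25 at -3. The same share over all genes was not computed, so whether this closeness is particular to the members is not known. The 21 members with these letters had a median of 29.4 RPKM (5.55 to 110.8), and the 17 without them a median of 17.8 RPKM (0.611 to 37.4). The ranges overlapped widely. By role, the medians with and without the letters were 33.3 and 19.6 RPKM in the outer kinetochore (9 and 6 genes) and 29.8 and 19.0 RPKM in the checkpoint (3 and 2 genes). They were 37.4 and 33.6 RPKM in the passenger complex (2 genes and 1 gene), 16.9 and 10.1 RPKM for the shugoshins and ERCC6L (2 genes and 1 gene), and 17.3 and 17.8 RPKM in the inner centromere (5 and 7 genes). For CCAAT the medians were 25.6 RPKM in 26 members with it and 17.1 RPKM in 12 without. DSN1, CENPI, CENPT, NSL1 and MAD1L1 had neither kind of letters in the window.

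The outer kinetochore had a median of 27.6 RPKM over 17 genes, and 16 of them reached 10 RPKM. ZWINT, which binds KNL1 and helps to bring the RZZ complex to kinetochores, had 109.8 and 111.8 RPKM in replicates 1 and 2, the highest level of all members. KNL1 itself, the scaffold that docks BUB proteins, had 16.1 and 16.0 RPKM, so ZWINT was 6.90-fold higher than its partner (6.83 and 6.97 in the separate libraries). ZWINT is a short gene of 4.05 kb on chromosome 10 from 56357228 to 56361275, and none of its exonic bases is shared with another gene.

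The 4 subunits of the NDC80 complex, which are present in equal numbers in the assembled protein, did not have equal transcript levels. SPC25 had 54.1 RPKM in replicate 1 and 51.9 in replicate 2, and SPC24, its direct partner at the inner end of the complex, had 14.3 and 14.0 RPKM. The libraries' values did not overlap, and SPC25 was 3.74-fold higher, a log2 ratio of 1.90 with counting SEs of 0.07 and 0.08 in the libraries. NDC80 and NUF2, the microtubule-binding subunits, lay between them. NDC80 had 40.4 and 37.0 RPKM and NUF2 29.7 and 28.4 RPKM, and these values did not overlap either.

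The MIS12 complex, which links the inner and outer layers, gave the lowest outer gene. DSN1 stood at 27.6 ± 0.40 RPKM, MIS12 at 10.5 ± 0.463 and NSL1 at 4.00 ± 0.313. The level of NSL1 depended on the length it was divided by. Its values imply an exonic length of at least 13867 bases, whereas GENCODE release 29 gives 4091 bases. The same 694 and 763 reads divided by the GENCODE length give 13.6 ± 1.06 RPKM and a log2 ratio of DSN1 to NSL1 of 1.02, against 2.78 with the deposited values. This is a rescaling and no measured level, since reads outside the GENCODE exons stay in it, and on that length MIS12 would be the lowest of the 3 genes. Partner genes of the outer kinetochore, which ran from 5.57 to 63.8 RPKM, were not placed in the outer complexes and could change their extremes. CENPU was the other member whose length was off by more than 10%, at 3483 against 2953 bases. For the other 45 members the lengths lay within 10% of GENCODE's, and for 17 members they were equal to it; where the RPKM left a choice of length, the value nearest GENCODE's was taken, so this match is partly built in.

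**Figure D2:**
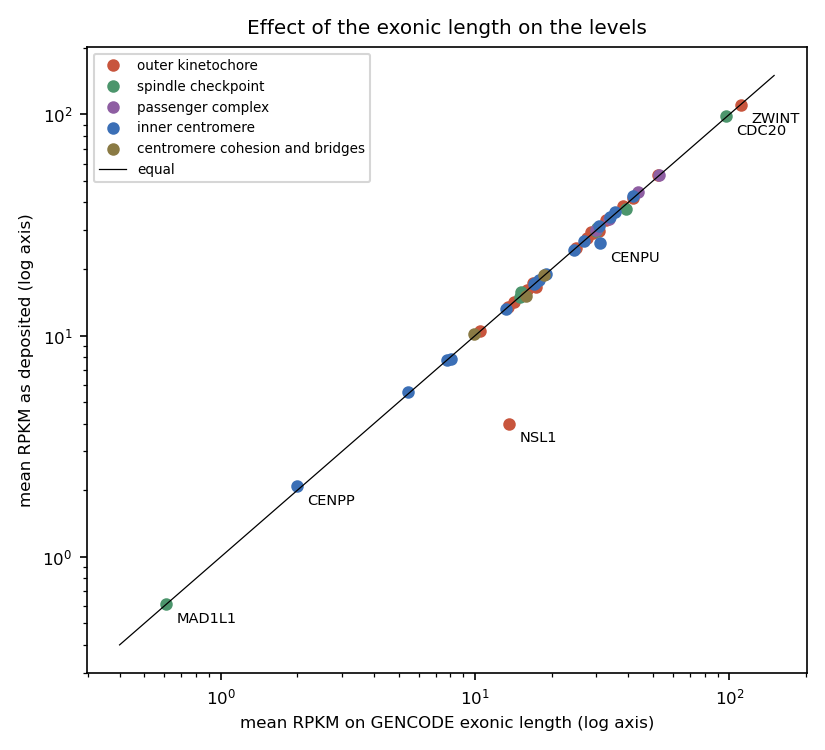
Mean RPKM of each member on the GENCODE exonic length (x axis) against the deposited mean RPKM (y axis), both log axes, coloured by role, with the line of equality. NSL1 lies far below the line, at 4.00 RPKM as deposited and 13.6 on the GENCODE length, CENPU lies slightly below it, and MAD1L1 and CENPP keep their low levels.

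In the RZZ complex, which brings dynein and MAD1 to kinetochores, ZW10 stood at 29.4 ± 0.384 RPKM and ZWILCH at 25.01 ± 0.569, while the largest subunit, KNTC1, stood at 13.5 ± 0.187. Not divided by length, KNTC1 was above ZW10, with a log2 ratio of ZW10 to KNTC1 of -0.83 in CPM, against 1.12 in RPKM. The SKA complex, which helps NDC80 hold on to shortening microtubules, had SKA3 at 33.3 ± 0.516 RPKM and SKA2 at 29.8 ± 0.383, with SKA1 lower at 17.3 ± 0.472. SKA3 was 1.93-fold higher than SKA1. Of the corona proteins, the large coiled-coil protein gene CENPF stood at 41.7 ± 0.831 RPKM and the kinesin gene CENPE at 16.6 ± 0.195. CENPF was 2.52-fold higher, and with 6347 and 6426 reads it had the most reads of all members.

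Among the 7 checkpoint genes the median was 29.8 RPKM, and the highest and the lowest member of the role were also near the ends of the whole list. CDC20, the target of the checkpoint, had 96.9 RPKM in replicate 1 and 99.2 in replicate 2, next below ZWINT. The kinase gene BUB1 followed at 37.4 ± 0.367 RPKM, BUB3 at 30.6 ± 0.659 and BUB1B, which encodes BUBR1, at 29.8 ± 0.755. MAD2L1, whose product binds CDC20, had 16.6 and 14.9 RPKM, and TTK, the kinase MPS1 that starts the signal, had 14.5 and 15.5 RPKM.

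MAD1L1 was the exception of the role. This gene encodes MAD1, the protein that anchors MAD2 at unattached kinetochores. It had 0.669 and 0.552 RPKM in replicates 1 and 2, from 64 and 52 reads, with exact 95% Poisson intervals of 0.515 to 0.855 and 0.413 to 0.724 RPKM that cover counting error only. All other members lay above these intervals in both libraries, and BUB1 was 61.2-fold higher. MAD1L1 lies on chromosome 7 from 1815793 to 2233243 and spans 417 kb, the longest span of all members. No exonic base of it is shared with another gene in GENCODE, and its rebuilt exonic length of 7230 bases equals GENCODE's.

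The genes beside MAD1L1 were looked up after this value was seen. MRM2, which encodes a methyltransferase of mitochondrial ribosomal RNA and is the next protein-coding gene on the side where MAD1L1 starts, had 1 read in replicate 1 and 6 in replicate 2, or 0.0938 ± 0.0953 RPKM. The genes after it were well covered, with NUDT1 at 36.2 RPKM in replicate 1 and 34.5 in replicate 2, SNX8 at 26.4 ± 1.18 and EIF3B at 63.5 ± 0.305. On the other side, ELFN1 stood at 18.1 ± 1.72 RPKM. Low values were thus found in neighbouring genes of this stretch, and their cause was not tested.

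The chromosomal passenger complex had the narrowest range. All 4 genes lay above 10 RPKM, with a median of 39.2 RPKM. BIRC5, which encodes survivin, had 53.5 and 52.7 RPKM, and CDCA8, which encodes borealin, had 43.9 and 45.5 RPKM. The kinase gene AURKB had 32.8 and 34.4 RPKM and the scaffold gene INCENP 30.3 and 29.8 RPKM. The values of these genes did not overlap with each other in either library, but BIRC5 was no more than 1.77-fold above INCENP. In RPKM, though not in CPM, that is the smallest ratio of highest to lowest among the complexes with 4 or more members, the others being NDC80 at 3.74, CENP-H/I/K/M at 2.60, CENP-O/P/Q/U at 12.5 and checkpoint signalling at 61.2.

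The inner centromere had a lower median than the outer kinetochore, checkpoint and passenger complex, 18.4 RPKM over 16 genes, and 12 of them reached 10 RPKM. The genes that make and place the centromeric nucleosome were its highest group. CENPA had 36.3 RPKM in replicate 1 and 36.2 in replicate 2. MIS18A, which licenses the loading of CENP-A, stood at 42.6 ± 0.319 RPKM, and HJURP, the CENP-A chaperone, at 26.8 ± 1.17.

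Genes of the network on the nucleosome were more spread. In the group of CENP-H, I, K and M, CENPH stood at 34.3 ± 1.15 RPKM, CENPM at 31.3 ± 0.504, CENPK at 17.8 ± 0.314 and CENPI at 13.2 ± 0.0144. CENPC, the large protein that links the nucleosome to the MIS12 complex, was low at 5.40 and 5.70 RPKM, from 607 and 630 reads. CENPN, which reads the CENP-A nucleosome, stood at 17.3 ± 0.737 RPKM, and its partner CENPL at 7.77 ± 0.109. Of the histone-fold pair CENP-T and CENP-W, CENPW was at 24.5 ± 1.42 RPKM and CENPT at 7.87 ± 0.478.

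The group of CENP-O, P, Q and U held the widest spread of the inner complexes as grouped from the members alone. Partner genes of the inner centromere, which ran from 2.64 to 47.5 RPKM, were not placed in these complexes and could widen others. CENPU stood at 26.2 ± 0.728 RPKM, CENPQ at 19.0 ± 0.0887 and CENPO at 17.0 ± 0.0535. CENPP had 1.98 RPKM in replicate 1 and 2.21 in replicate 2, from 244 and 268 reads, so CENPU was 12.5-fold higher. CENPP spans 295 kb on chromosome 9 from 92325484 to 92620533, and 42.7% of its exonic bases are shared with genes on the opposite strand. This was the largest share of all members. It was also over 10% for CENPO (31.4%), CENPN (22.8%), CENPT (19.6%), SGO1 (17.7%), CENPU (11.7%), ZWILCH (10.9%) and BUB1B (10.2%). The partners lie on the opposite strand except for BUB1B, which shares bases with the readthrough transcript BUB1B-PAK6. Whether strand was used in counting is unstated, so reads of these genes and their partners may not be told apart.

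The remaining 3 members guard sister chromatids. SGO1, the shugoshin that shields centromeric cohesin, had 10.9 and 9.42 RPKM. Its relative SGO2 had 14.9 and 15.3 RPKM, a mean 1.49-fold above SGO1. ERCC6L, the translocase PICH that coats ultrafine DNA bridges in anaphase, had 18.3 and 19.3 RPKM.

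Set side by side on the log2(RPKM + 1) scale, the role medians were 5.31 for the passenger complex, 4.94 for the checkpoint, 4.84 for the outer kinetochore and 4.28 for the inner centromere. Relative to the inner centromere the passenger complex was higher by 1.04 (1.00 and 1.06 in the separate libraries). The checkpoint was higher by 0.67 (0.64 and 0.69) and the outer kinetochore by 0.56 (0.57 and 0.54). These differences are larger than the spread between the libraries, which does not measure the spread among genes. Quartiles were 11.9 and 27.9 RPKM in the inner centromere, 16.0 and 33.3 in the outer kinetochore and 15.4 and 34.0 in the checkpoint, and so overlapped widely. In the passenger complex they were 32.7 and 46.8 RPKM. Genes are not replicates and no test was made. Among members with under 10% of exonic bases shared, the checkpoint median fell below the inner centromere's, a difference of -0.15. The outer kinetochore stayed above it by 0.20 and the passenger complex by 0.64. BUB1B, at 10.2% and so just over the limit, was the only checkpoint gene left out. The limit also left out CENPU, CENPN, CENPO, CENPT and CENPP of the inner centromere. All of these but CENPU lay below the inner centromere's median of 18.4 RPKM, so that median rose. The change of sign therefore does not come from BUB1B alone.

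**Figure D3:**
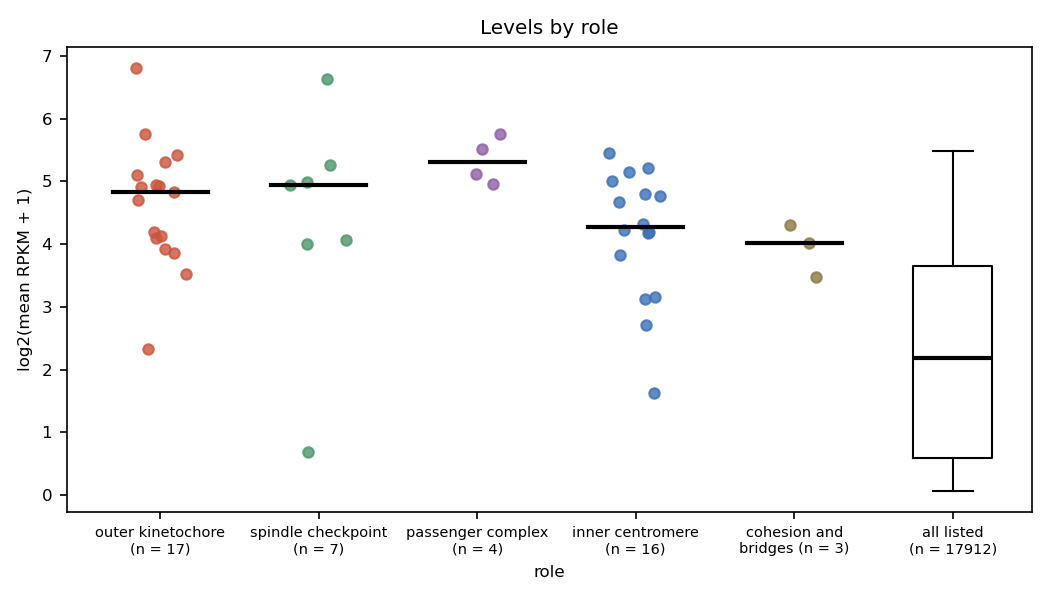
log2(mean RPKM + 1) of each member by role, with the role median as a bar, and all 17912 entries of the table as a box (quartiles, median, whiskers at the 5th and 95th percentiles). The role medians run from 5.31 for the passenger complex to 4.28 for the inner centromere and 4.01 for the shugoshins and ERCC6L. Single genes such as MAD1L1, NSL1 and CENPP lie far below their role in the deposited values. NSL1 would be at 13.6 RPKM on the GENCODE length, and CENPP shares 42.7% of its exonic bases with other genes.

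Some members share their start region with a gene on the opposite strand. For 12 of 47 members a protein-coding gene began within 1000 bases on the other strand in GENCODE. The share over all genes was not computed, so whether this count is particular to the members is not known. NDC80 and METTL4 start 2 bases apart, at 38.7 and 4.70 RPKM, and SKA3 and MRPL57 start 43 bases apart, at 33.3 and 14.5 RPKM. CDCA8 was also higher than its neighbour C1orf109 (5.32 RPKM), whereas SKA2, at 29.8 RPKM, was lower than PRR11 at 69.3 RPKM. CENPK and PPWD1 start 65 bases apart and had 17.8 and 15.7 RPKM.

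The libraries gave nearly the same levels for these genes. The log2 ratio of replicate 2 over replicate 1 ran from -0.27 for MAD1L1 to 0.17 for NSL1, with a median size of 0.05, and 28 members were higher in replicate 2 and 19 in replicate 1. Over the 4964 genes at 10 RPKM or more in both libraries the median size was also 0.05, so the agreement is not particular to the members. The coefficient of variation was under 5% for 39 of 47 members, and its share over all genes was not computed. Recovered reads were compared by a 2-sided exact binomial test, adjusted by Benjamini-Hochberg over 15776 genes. It called 0 of 47 members, against 1.26% of all genes tested, made up of 0.786% that were higher in replicate 2 plus 0.475% in replicate 1. At an unadjusted p under 0.05 it passed 4 members, NDC80, MAD2L1 and SGO1 (higher in replicate 1) and NSL1 (higher in replicate 2), where 10.4% of all genes passed. The smallest adjusted p of a member was 0.268, for MAD2L1, with a log2 ratio of -0.15 ± 0.06 (counting SE). The test compares these libraries, covers counting error only, and does not show that the levels were equal. Over all genes the spread between libraries exceeded counting error, with a chi-square of 1.87 per degree of freedom (1.27 over the members). Levels are given for each library or as the mean of both.

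**Figure D4:**
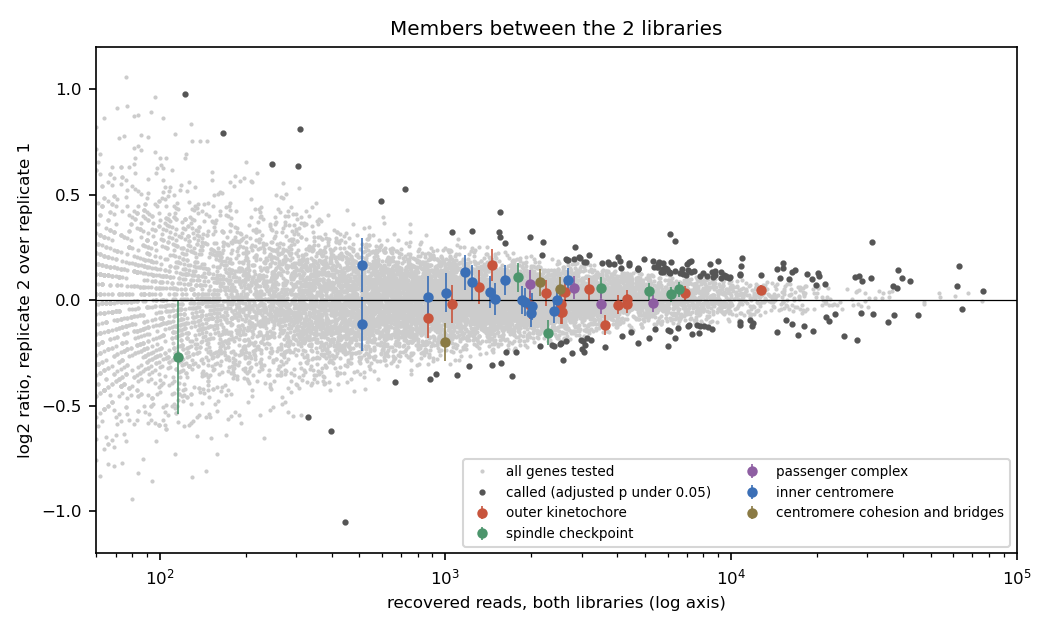
log2 ratio of replicate 2 over replicate 1 against recovered reads of both libraries (log axis) for the 47 members, coloured by role with counting SE, over all genes tested in light grey and called genes in dark grey; some genes of few reads or large ratios lie outside the axes. The members sit within the grey cloud, none is called, and MAD1L1 has the fewest reads and the widest error.

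Other genes of the same pathways were taken from a list of 48 partners, of which 47 were listed. In both libraries 46 of these reached 1 RPKM and 27 reached 10 RPKM, with a median of 13.6 RPKM. ANAPC10, a subunit of the anaphase-promoting complex that helps it bind substrates, was below at 0.741 ± 0.0870 RPKM, with 29.6% of its exonic bases shared with other genes, and the kinesin gene KIF2B was not listed. Of the anaphase-promoting complex and its helpers, the target of the checkpoint, 16 of 17 genes reached 1 RPKM. The ubiquitin-conjugating enzyme genes were the highest of them, UBE2C at 112 ± 1.84 RPKM, close to ZWINT and CDC20, and UBE2S at 41.4 ± 4.08, followed by the subunit gene ANAPC13 at 30.1 ± 1.66. UBE2S was the only partner called between the libraries (log2 ratio -0.19, adjusted p = 0.0241, exact binomial test).

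All 10 listed partners of the outer kinetochore reached 1 RPKM. They were led by the microtubule depolymerase gene KIF2C at 63.8 ± 0.271 RPKM, the microtubule polymerase gene CKAP5 at 42.4 ± 0.437 and BOD1 at 24.6 ± 1.06. Checkpoint partners passed in 6 of 6 cases, led by TRIP13, the ATPase that remodels MAD2, at 35.8 ± 1.42 RPKM, the kinase gene PLK1 at 27.7 ± 1.41 and FBXO5, an inhibitor of the anaphase-promoting complex, at 23.96 ± 0.282. Inner centromere partners also passed in 6 of 6 cases, led by CENPX at 47.5 ± 3.59 RPKM and the DNA-binding CENPB at 40.5 ± 0.852. The phosphatase genes that oppose kinetochore kinases passed in 8 of 8 cases, led by the catalytic subunit genes PPP1CA at 80.3 ± 1.91 RPKM, PPP1CC at 44.8 ± 0.427 and PPP1CB at 39.2 ± 1.75.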

How the data were processed

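Polyadenylated RNA was sequenced from 2 libraries of aphidicolin-treated U2OS cells. The authors deposited 1 RPKM value per gene and library, per the file headers. The submitters' processing notes name Trim Galore, HISAT2, featureCounts, hg38 and GRCh38.p13. Versions, annotation, strand setting and gene filters: not given in the sources used here. Symbols with several rows (194 of 18277 rows) were left out, and entries with identical values were counted once, which left 17912 entries.

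The ratio of both columns is a ratio of whole numbers in every gene with a largest relative error of 3e-14. Library totals came from 1019 genes with equal reads, and reads per gene followed from the whole-number exonic length nearest GENCODE release 29 (GRCh38), which also gave spans and exon overlap on either strand. Recovered reads and the binomial test compare the 2 libraries, scaled by the trimmed mean of M values (replicate 2 factor 0.9949), at least 10 reads per gene and an adjusted p of 0.05. The recovery and the test were run on simulated reads with counting error only and with the true lengths given. That run therefore does not cover spread beyond counting error, or lengths that differ from GENCODE's as for NSL1 and CENPU. Exact Poisson intervals cover counting error only, since reads copied by PCR are not independent molecules. Level limits were 1 and 10 RPKM, and the pseudocount was 1.

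All 47 members are named. Of the partner lists the 3 highest genes and those below 1 RPKM are named, and of the marker lists the highest gene and the mesenchymal genes below 1 RPKM. VIM, and neighbours of members, were named beyond this rule after their values were seen. A single item under this rule is not reported here. The members and lists were chosen with earlier results of these data known. Alternatives covered the level, unit, pseudocount, summary, overlap, role assignment, promoter window and each library alone. Software was matplotlib 3.10.9, pandas 2.3.3, scipy 1.17.1 and numpy 2.4.6 under Python 3.11.15.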

Additional observations from a re-analysis of the deposited data

How the results depend on the processing

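Of the alternative values, 53 stayed within 1 SD of the libraries or within 1.5 times of a count, 23 moved further and 2 changed sign. Members at 10 RPKM (40) numbered 25 at 20 RPKM. The median member (25.01 RPKM) was 25.4 to 25.5 in the separate libraries. Relative to the inner centromere, the outer kinetochore median (0.56) was 0.58 with a pseudocount of 0.1, 0.48 with means, 0.71 in CPM (not divided by length), 0.20 among members with little exon overlap and 0.60 with RZZ in the checkpoint. The checkpoint (0.67) was 0.22 with means, 1.16 in CPM, 0.54 with RZZ and -0.15 among members with little overlap. The passenger complex (1.04) was 1.18 with means, 0.64 with little overlap and 0.68 with the shugoshins and ERCC6L added. For the pairs that are highest and lowest in RPKM, kept although other subunits can be the extremes on another scale, log2 ratios in CPM were 1.27 for SPC25 over SPC24 (1.90 in RPKM), 0.42 for CENPH over CENPI (1.38), 2.23 for CENPU over CENPP (3.65), 0.44 for DSN1 over NSL1 (2.78), -0.83 for ZW10 over KNTC1 (1.12), 1.00 for SKA3 over SKA1 (0.95) and 0.60 for BIRC5 over INCENP (0.82), by construction, since CPM keeps the length of a gene. On the GENCODE length, an alternative chosen after seeing the data, the same pairs gave 3.96 for CENPU over CENPP, 1.02 for DSN1 over NSL1 and 0.83 for BIRC5 over INCENP. Other complexes were outside the CPM check. By reads alone, HJURP (1312 and 1374) was above MIS18A (959 and 934), and CENPT (564 and 605) above CENPW (268 and 243), the reverse of RPKM. CENPN over CENPL, ZWINT over KNL1, CENPF over CENPE, BUB1 over MAD1L1 and SGO2 over SGO1 kept their order. Apart from these length settings the cause was not tested. Members with TTTGAA or TTTAAA (21) numbered 14 in the bases before the start alone and 19 with TTTGAA alone. Members called between the libraries numbered 0 under every setting tried, with 4 at an unadjusted p under 0.05. No paired analysis was possible because there is 1 group. Depth limits MAD1L1, with 64 and 52 reads.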
